A study of Mus musculus with 4 samples.

Results

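ERG peaks found in the GATA1s leukemia and not in its counterpart are described here by position. Chromatin bound by ERG was immunoprecipitated and sequenced (ChIP-seq) from fixed spleen cells of C57BL6 mice with leukemia. Leukemia 1 was labelled transgenic and leukemia 2 transgenic GATA1s, and the sample titles of both carry the transgene name TgERG. Each leukemia gave 1 library with an antibody against ERG and 1 with control rabbit IgG. The promoter of the transgene, how the GATA1s change was introduced, the age of the mice and the number of animals behind a library are not stated in the labels. With 1 library per group, no value below has a replicate and no test compares the genotypes.

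The regions were chosen from the measured positions themselves. A peak of leukemia 2 was taken as found in leukemia 2 alone when its centre lay 1000 bp or more from every peak centre of leukemia 1 on the same chromosome. This left 505 of the 3751 peaks of leukemia 2, or 13.5% (95% Wilson interval 12.4 to 14.6, counting error only). Another 3201 peaks were shared, meaning that a leukemia 1 centre lay under 400 bp away, so that the intervals overlapped. The remaining 45 had their nearest leukemia 1 centre at 400 bp or more but under 1000 bp and belong to neither set. The same rule applied the other way left 2491 of the 5738 leukemia 1 peaks (43.4%) in leukemia 1 alone. Both shares depend on the limit set by the rule and on the lengths of the lists, each of which held 3201 shared peaks. They carry no test. The files give no peak height and no read depth, so for a region missing from a list, no binding and binding under the authors' threshold cannot be told apart.

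ERG belongs to the ETS transcription factors, which bind DNA at a GGAA core. In blood it maintains stem cells and takes part in megakaryocyte development, and at many enhancers it binds beside GATA, RUNX and SCL/TAL1 factors. GATA1 drives the maturation of red cells and megakaryocytes. GATA1s is a short form of it that lacks the N-terminal activation domain, and it is known from the megakaryoblastic leukemia of children with Down syndrome. Gene positions were at hand only for the later build GRCm38.p6, whereas the peaks are on mm9, and 6 of the 505 regions, all on chromosome 7, lay beyond its last gene. Regions are therefore named by mm9 position counted from 1. Genes, motifs and sequences at them were not analysed here.

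Regions of leukemia 2 alone lay at widely differing distances from leukemia 1 peaks. The median distance to the nearest leukemia 1 centre was 47.9 kb, with quartiles of 15.8 and 121 kb. In 20 regions that distance was 1 to 2 kb, in 44 it was 2 to 5 kb and in 49 it was 5 to 12.5 kb. A further 145 regions lay at 12.5 to 50 kb, 103 at 50 to 100 kb and 107 at 100 to 500 kb. Beyond that, 25 regions lay at 500 to 1000 kb and 12 at 1000 kb or more. Thus 247 of the 505 (48.9%) had no leukemia 1 peak within 50 kb. These distances were used by the rule and carry no test.

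**Figure D1:**
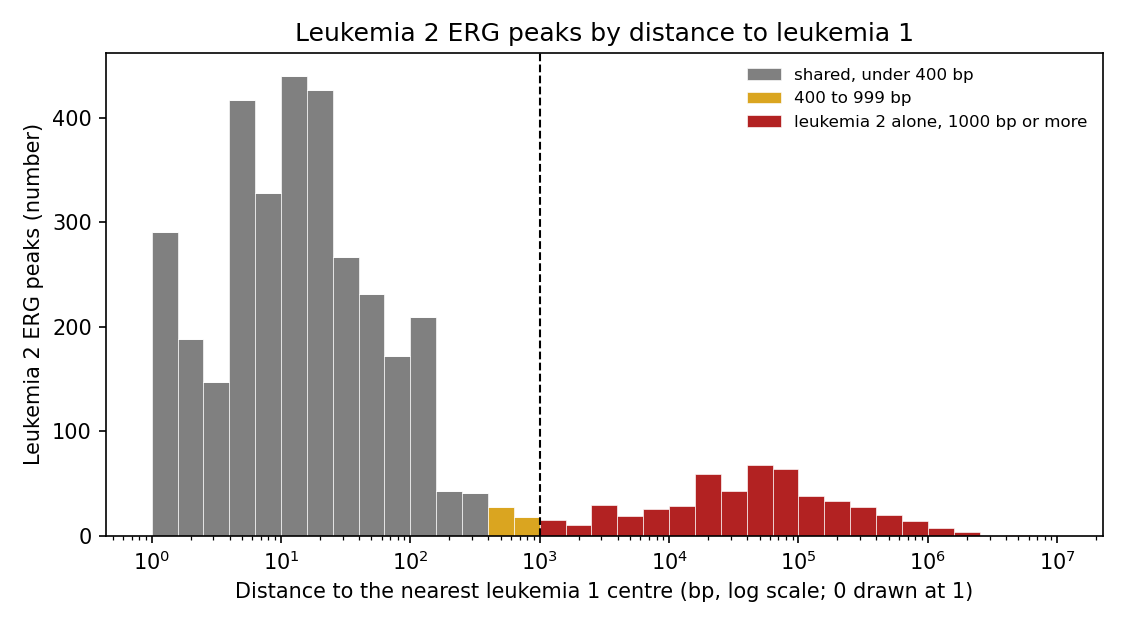
Number of leukemia 2 ERG peaks (vertical axis) by distance to the nearest leukemia 1 centre (bp, logarithmic axis, a distance of 0 drawn at 1), coloured by class, with the dashed line at the limit of 1000 bp. On this axis the 3201 shared peaks form the left mode and the 505 peaks of leukemia 2 alone the right mode. The 45 peaks at 400 bp or more but under 1000 bp lie between them.

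On the logarithmic scale of distance, the limit of 1000 bp cut through a thinly filled part of that distribution. Bins on that scale widen with distance, so the dip does not by itself show a gap in peaks per bp. The 5 regions just inside it had distances of 1026, 1027, 1028, 1088 and 1088 bp. They lie at chr12:114393304-114393703, chr10:61967056-61967455, chr9:64584333-64584732, chr5:108389690-108390089 and chr18:62112320-62112719. At 3 of them, those on chromosomes 10, 9 and 5, the leukemia 1 centre nearby was itself matched by a shared peak, and leukemia 2 had called both positions. In the other two, on chromosomes 12 and 18, the nearby leukemia 1 peak was one of leukemia 1 alone, so each leukemia had 1 call and the calls lay about 1 kb apart. The 5 peaks just outside the limit had distances of 993, 954, 900, 890 and 877 bp and lie at chr13:30175821-30176220, chr10:79604915-79605314, chr13:109106842-109107241, chr7:148043003-148043402 and chr5:117587676-117588075.

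The nearest leukemia 1 peak was a shared one at 296 of the 505 regions, 58.6% (Wilson interval 54.3 to 62.8). Shared peaks made up 55.8% of the leukemia 1 list, which lies inside that interval, so this share is near the makeup of the list. Among the 20 regions at 1 to 2 kb the nearest leukemia 1 peak was shared at 15, and at 5 it was a peak of leukemia 1 alone. At 2 to 5 kb the numbers were 22 and 22. At these 27 regions, whose nearest leukemia 1 peak lay within 5 kb and was not shared, 1 site called at different centres and separate sites cannot be told apart.

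The most remote region lay at chr10:50312265-50312664. Its nearest peak of either leukemia was 5008 kb away. The next were chr9:90009324-90009723 at 2160 kb from leukemia 1 and chr5:48763392-48763791 at 1884 kb. They were followed by chr2:20890808-20891207 at 1860 kb, with another leukemia 2 peak at 1279 kb, and chr2:161191631-161192030 at 1651 kb. No other peak of either list lay within 1000 kb of 11 of the 505 regions (2.18%, interval 1.22 to 3.86), and the same was true of 67 of the 3201 shared peaks (2.09%, 1.65 to 2.65).

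Within their own list, the regions and shared peaks had similar median spacing. For every class a neighbour was counted only at 1000 bp or more, so that the 2 calls of a shared site were not taken for neighbours. The nearest other leukemia 2 peak lay at a median of 64.0 kb from regions of leukemia 2 alone (quartiles 18.9 and 192 kb) and at 62.5 kb from shared peaks (21.7 and 182 kb). Another leukemia 2 peak within the clustering distance of 12.5 kb was found for 91 regions of leukemia 2 alone (18%) and 518 shared peaks (16.2%). The difference was 1.84 percentage points, with a 95% Newcombe interval of -1.54 to 5.63. With a limit of 5000 bp in place of 1000 bp it was -5.75 points, since a shared peak of leukemia 2 lies beside a leukemia 1 centre and the limit removes regions near it. The measure is thus not independent of the rule and is a description, and the intervals treat peaks as independent, which neighbours are not.

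Neighbours in leukemia 1 are given as a description, since the rule chose the regions by their distance to leukemia 1 centres. The nearest leukemia 1 centre at 1000 bp or more lay at a median of 47.9 kb from regions of leukemia 2 alone and 39.8 kb from shared peaks. Within 50 kb, 258 of the 505 regions (51.1%) and 1783 of the 3201 shared peaks (55.7%) had a leukemia 1 neighbour. The mean number of leukemia 1 peaks within 500 kb was 5.78 around regions of leukemia 2 alone and 6.21 around shared peaks, with a median of 5 for both. For leukemia 2 peaks the means were 3.94 and 4.06, with medians of 3.

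Most regions with a leukemia 2 neighbour had a leukemia 1 neighbour as well, which follows largely from the makeup of the lists. Shared peaks, each with a leukemia 1 centre under 400 bp away, made up 85.3% of the leukemia 2 list. Within 50 kb, 199 of the 505 regions had a neighbour in both lists, 59 in leukemia 1 only and 25 in leukemia 2 only, and 222 had none. At 12.5 kb these counts were 79, 34, 12 and 380. Among the 3201 shared peaks, the counts within 50 kb were 1327 in both lists, 456 in leukemia 1 only and 88 in leukemia 2 only. None was found for 1330. As shares, leukemia 2 only made up 4.95% of the regions (Wilson interval 3.38 to 7.21) and 2.75% of shared peaks (2.24 to 3.37). For leukemia 1 only the shares were 11.7% and 14.2%, for both lists 39.4% and 41.5%, and for none 44.0% and 41.5%. Since the rule keeps regions from leukemia 1 centres, these shares are not independent of it, and the differences were not tested.

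**Figure D2:**
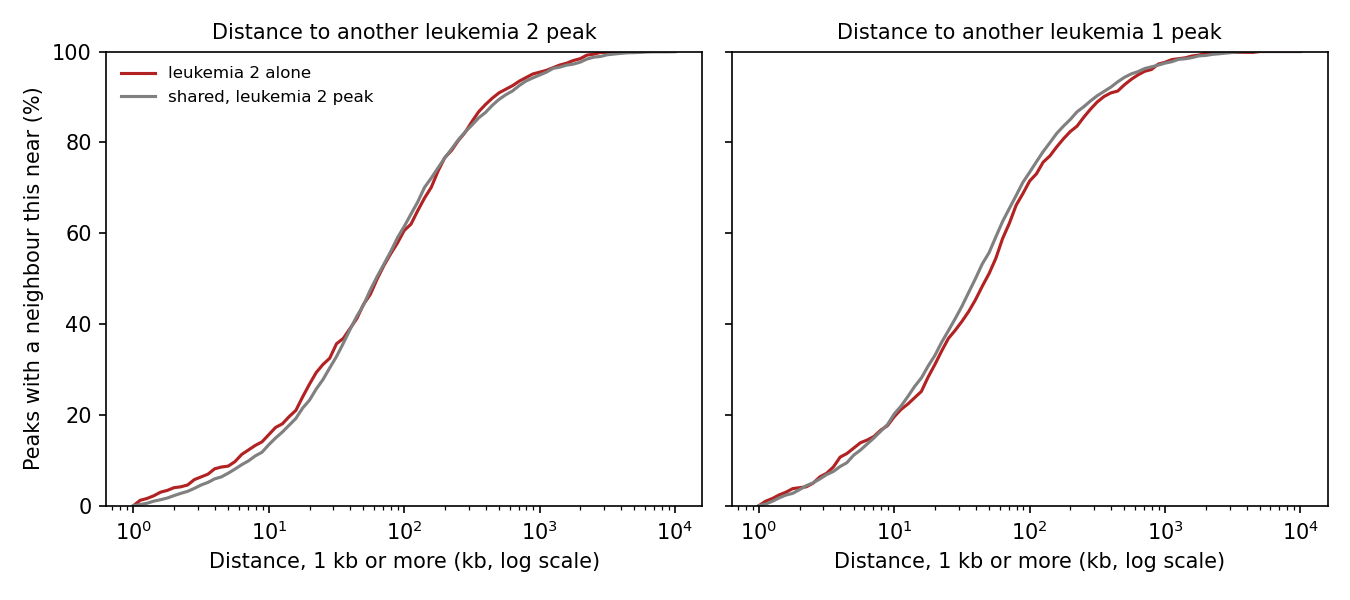
Cumulative share of peaks (%) whose nearest other leukemia 2 peak (left) or leukemia 1 peak (right) lies within the distance on the horizontal axis (kb, logarithmic, counted from 1 kb), for the 505 peaks of leukemia 2 alone and the 3201 shared peaks. On the left the curves run close to each other without coinciding, with medians of 64.0 and 62.5 kb and lower quartiles of 18.9 and 21.7 kb. On the right the medians are 47.9 and 39.8 kb.

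Distances between regions of leukemia 2 alone were measured in the same way. The median distance from one to the next nearest was 722 kb, with quartiles of 213 and 2250 kb. The nearest other leukemia 2 peak was shared at 416 regions (82.4%), another peak of leukemia 2 alone at 86 (17.0%, Wilson interval 14.0 to 20.6) and one of the 45 intermediate peaks at 3. In the leukemia 2 list as a whole, peaks of leukemia 2 alone made up 13.5%, just below that interval, which treats neighbouring peaks as independent. The comparison is also not independent of the rule. A shared peak lies under 400 bp from a leukemia 1 centre, so at short range the rule keeps regions from shared peaks but not from each other. Regions nearest to each other are each counted. The difference was not tested. A shared peak lay within 12.5 kb of 76 regions (15%, 12.2 to 18.4) and a peak of leukemia 1 alone within that distance of 49 (9.70%, 7.42 to 12.6). Another peak of leukemia 2 alone lay within it of 22 regions (4.36%, 2.89 to 6.51). The classes searched held 3201 shared peaks, 2491 of leukemia 1 alone and 505 of leukemia 2 alone. These shares therefore reflect class size too and do not rank closeness.

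Those 22 regions formed 11 pairs and no run of 3 or more. At 6 of the 11 pairs no other peak of either leukemia lay within 12.5 kb, at 4 a shared peak did, and at 1 there was a leukemia 1 peak but no shared one. The closest pair spanned chr11:117690631-117692072, with centres 1042 bp apart and a shared peak beside it, and its members lay 2.77 and 1.73 kb from a leukemia 1 centre. On the same chromosome, chr11:116398011-116399874 held a pair 1464 bp apart, at 2.56 and 4.02 kb from leukemia 1. The pair at chr5:138127279-138129561, 1883 bp apart, stood by itself, with the nearest leukemia 1 centre 54.9 and 56.8 kb from its members. So did the pair at chr16:4074874-4078058, 2785 bp apart, at 71.1 and 73.9 kb. The fifth pair, chr17:5794264-5798797, was 4134 bp wide between centres and had a shared peak within reach. In the wider pairs the centres lay 6.04 to 11.4 kb apart.

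**Figure D3:**
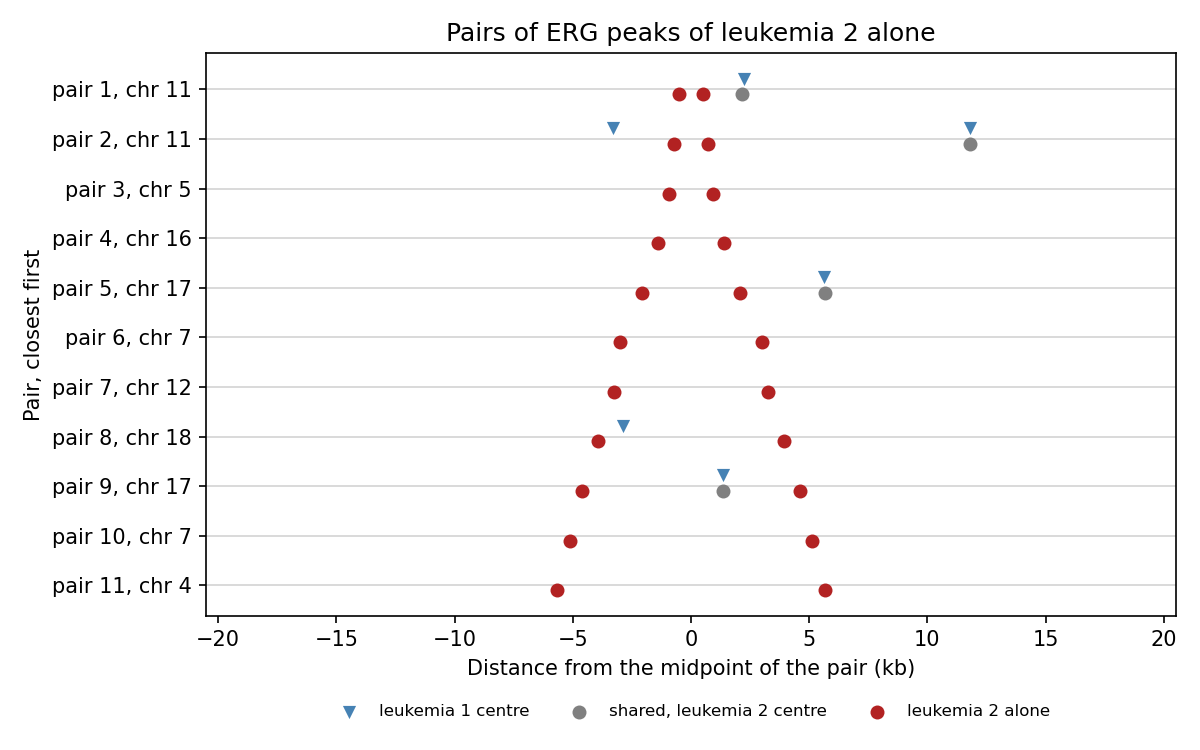
The 11 pairs of ERG peaks of leukemia 2 alone with centres within 12.5 kb, ordered from the closest, with distance from the midpoint of the pair (kb) on the horizontal axis. Red circles are peaks of leukemia 2 alone, grey circles shared leukemia 2 peaks and blue triangles leukemia 1 centres, and 6 pairs show red circles only.

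On a wider scale a few windows collected several of these regions, a count made after the positions were seen. On a fixed grid of 1 Mb, the 505 regions fell into 394 windows, of which 301 held 1 region, 79 held 2, 12 held 3 and 2 held 5. One of the windows with 5 runs from 5000001 to 6000000 on chromosome 17, where 5 of the 9 leukemia 2 peaks were of leukemia 2 alone and leukemia 1 had 6 peaks. It contains 2 of the pairs, and a single region at chr17:5506633-5507032 that lay 81.4 kb from leukemia 1. The other runs from 148000001 to 149000000 on chromosome 7, with 5 of 12 leukemia 2 peaks and 13 leukemia 1 peaks. There the pair at chr7:148316921-148327524 was followed by chr7:148358281-148358680, which lay 31.2 kb from its leukemia 2 neighbour and 43.2 kb from leukemia 1.

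In 4 of the windows with 3 regions, these were most of the leukemia 2 peaks present. On chromosome 19 from 17000001 to 18000000, 3 of 4 leukemia 2 peaks were of leukemia 2 alone, and leukemia 1 had 1 peak. On chromosome 5 from 77000001 to 78000000 it was 3 of 5, with 2 leukemia 1 peaks, and the regions chr5:77074492-77074891, chr5:77087236-77087635 and chr5:77119133-77119532 followed each other with no leukemia 1 centre nearer than 17.7 kb. On chromosome 13 from 24000001 to 25000000 it was also 3 of 5, and all 3 regions lay 103 kb or more from any leukemia 1 peak, of which the window had 3. The last was chromosome 6 from 30000001 to 31000000, again 3 of 5, where leukemia 1 had 4 peaks. These 4 windows were picked for their high share. In the other windows with 3 regions, these were a minority, from 3 of 7 to 3 of 11 leukemia 2 peaks. The share in the whole leukemia 2 list was 13.5%. In total, 37 windows with 41 of the 505 regions held no leukemia 1 peak. The rule chose regions by their distance to leukemia 1 centres, whereas a shared peak has such a centre under 400 bp away. This count therefore describes the choice of regions and carries no test.

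Every one of the 20 chromosomes with ERG peaks carried some of these regions. Chromosome 19 had the highest density, 0.379 per Mb between the first and last peak of the chromosome (22 regions), followed by chromosome 11 with 0.313 (37 regions) and chromosome 2 with 0.269 (48 regions). Chromosome X had the lowest, 0.0314 per Mb (5 regions), before chromosome 14 with 0.0875 (10 regions) and chromosome 1 with 0.158 (30 regions). Over all chromosomes the density was 0.200 per Mb, against 1.27 for shared peaks and 0.986 for peaks of leukemia 1 alone.

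As a share of the leukemia 2 peaks of each chromosome, the regions varied less. The highest share was 18.5% on chromosome 12 (23 of 124, Wilson interval 12.7 to 26.3) and the lowest 8.85% on chromosome 14 (10 of 113, 4.88 to 15.5). On chromosome 17, despite its window with 5 regions, it was 9.89% (18 of 182, 6.35 to 15.1). The interval included the overall 13.5% on all 20 chromosomes, and the Newcombe interval of the difference from the other chromosomes left out 0 on 0 of them. On chromosome 12 that difference was 5.26 points (-0.71 to 13.08) and on chromosome 14 it was -4.76 points (-8.89 to 2.01). For each region of leukemia 2 alone there were from 3.45 peaks of leukemia 1 alone, on chromosome 19, to 9, on chromosome X, where the ratio rests on 5 regions. Differences between chromosomes in this ratio were not tested.

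**Figure D4:**
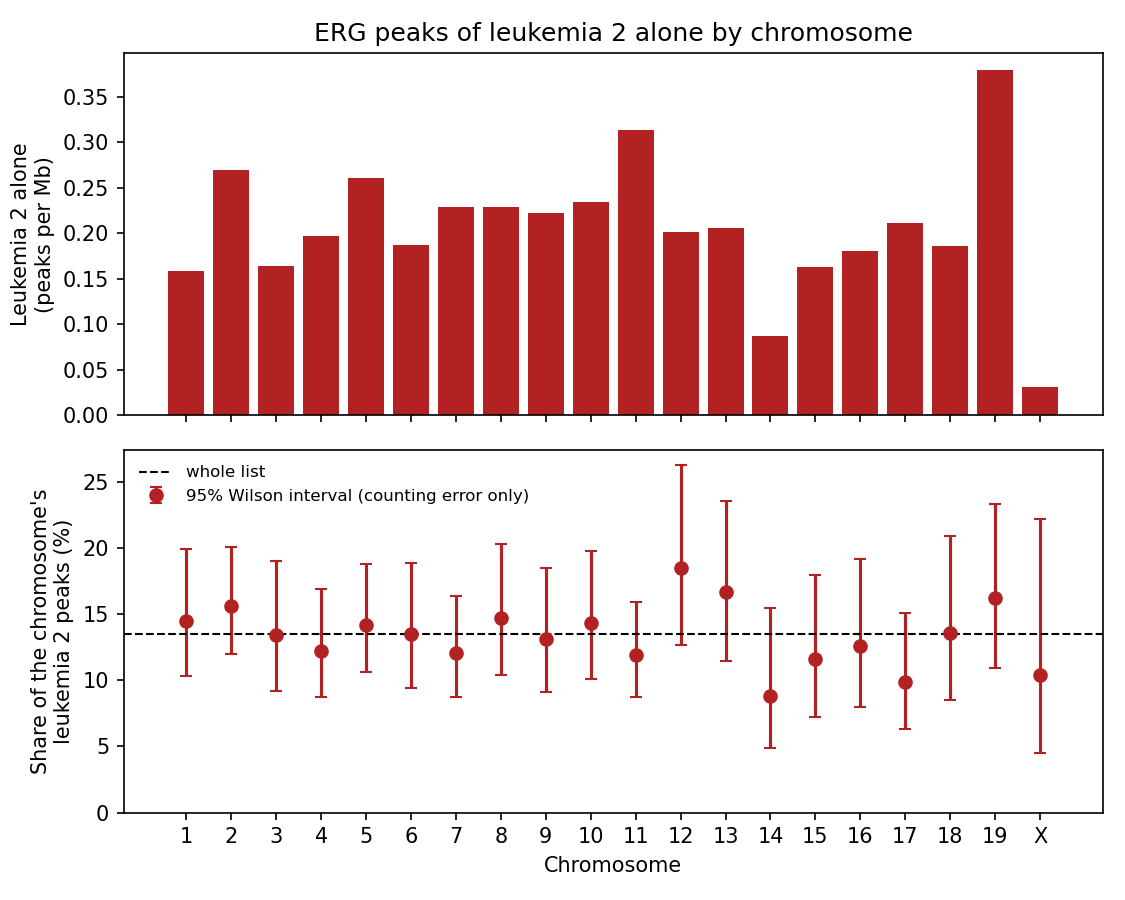
ERG peaks of leukemia 2 alone per Mb between the first and last peak of each chromosome (top), and their share of that chromosome's leukemia 2 peaks (%) with 95% Wilson intervals (bottom), the dashed line marking the share in the whole list. Density runs from 0.0314 on chromosome X to 0.379 on chromosome 19, while all 20 intervals of the share include 13.5%.

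Along the chromosomes the regions leaned toward the higher coordinates, as the other peaks did. With each chromosome divided into 3 equal parts between its first and last peak, the last part held 220 of the 505 regions (43.6%, Wilson interval 39.3 to 47.9), the middle part 149 and the first part 136. Shared peaks had 42.4% (40.7 to 44.1) in the last part and peaks of leukemia 1 alone 43.9% (42.0 to 45.9).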

How the data were processed

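The 2 files analysed here list ERG peaks, 1 file per leukemia, each assigned to the ERG sample whose title it carries. Reads were aligned with Bowtie to mm9, per the submitters' processing notes. How peaks were called, at which threshold and with what use of the IgG libraries is not given in the sources used here, and IgG values were not used here. The intervals deposited by the authors hold positions only, all 400 bp wide, with no score, so the depth is unknown.

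Distances were taken between peak centres. Neighbours of a peak were centres at 1000 bp or more from it. Shares have 95% Wilson intervals and differences 95% Newcombe intervals, and no p-value was computed. The functions were tested on simulated lists. Regions named were the 5 on either side of the limit, the 5 farthest from leukemia 1, the 5 closest pairs and the 3 chromosomes at each end of the density. The pair on chromosome 7, the 1 Mb windows and the regions in them were chosen after their values were seen. The rule for the regions was chosen with earlier results of these data known. Location by gene, motifs and gene lists had been planned and need an mm9 reference, so they were not run. Computations used Python 3.11.15, NumPy 2.4.6 and statsmodels 0.14.6, and plots matplotlib 3.10.9.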

Additional observations from a re-analysis of the deposited data

How the results depend on the processing

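The number of peaks of leukemia 2 alone, 505 at a limit of 1000 bp, was 550 at 400 bp, 485 at 2000 bp, 441 at 5000 bp and 392 at 12.5 kb, and 468 without chromosome 11, all within 1.5 times. Counts of neighbours moved with the distance allowed, by construction. Another peak of leukemia 2 alone lay within 5 kb of 10 regions and within 50 kb of 58, against 22 at 12.5 kb. A shared peak lay within 5 kb of 37 and within 50 kb of 193, against 76. In alternatives added after seeing the data, the difference from shared peaks in the share with another leukemia 2 peak nearby was 1.84 points at 12.5 kb. It ran from -0.89 to 2.18 points over other distances, the 400 bp limit and the omission of chromosome 11, and its interval held 0 in each. With the 5000 bp limit it was -5.75 points, since that limit removes regions close to a leukemia 1 peak and so to shared peaks. No paired analysis was possible because no group has more than 1 library. Alternatives on location, motifs and listed genes were not run. The depth and the calling threshold, both unknown, limit how far a missing peak can be read.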
